A study of Mus musculus with 12 samples.

Results

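The 10 genes described here make, conjugate and transport bile acids in the hepatocyte or sense them there: Cyp7a1, Cyp8b1, Cyp27a1, Cyp7b1, Slc27a5, Baat, Slc10a1, Abcb11, Nr1h4 and Nr0b2. They were chosen by name from the 54532 genes of the count table and followed through all 12 RNA-seq libraries. The libraries came from the liver and the subcutaneous fat of male mice that received an adeno-associated virus (AAV8) by tail vein at 10 weeks of age and then ate a low-fat diet for 16 weeks. In the overexpression (hHKDC1 OE) groups the vector carried full-length human HKDC1, a hexokinase family member, under control of the hepatocyte promoter of thyroxine-binding globulin, and in the null groups the same vector carried no such gene, so that all 4 groups had received AAV. Each tissue and vector had 3 libraries. The titles and treatment labels gave the vector, whereas a second description called replicates 2 and 3 of both hHKDC1 OE groups knockouts, and the titles were followed. Human HKDC1 was not analysed here, so the vector gene itself gave no check of these labels. The labels did not say whether liver and fat libraries with 1 number came from the same mouse. Livers of this model taken for metabolite measurements came after a fast of 4 h, the account of the RNA libraries does not repeat this, and no time of day was given, although bile acid synthesis is known to follow both.

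Bile acids are made from cholesterol in the liver by a classic route that opens with Cyp7a1 and an alternative route that opens with Cyp27a1. They are joined to taurine or glycine, pumped into bile at the canalicular membrane of the hepatocyte, reabsorbed in the intestine and taken up again from the portal blood. Bile acids bind the nuclear receptor FXR, the product of Nr1h4, which raises Abcb11 and Nr0b2. Nr0b2 encodes SHP, a receptor without a DNA-binding domain that represses Cyp7a1 and Cyp8b1, so that synthesis is held down when bile acids are plentiful.

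Each library held 15496019 to 19954971 counts on genes, and levels are given as CPM, a gene's count scaled to the total of its library, or as FPKM, which also divides by gene length, where genes are compared with each other. In liver, the library of hHKDC1 OE replicate 2 stood apart from the other hHKDC1 OE libraries. The chi-square per gene was 121 and 100 against replicates 1 and 3, beside 40.3 between those 2. For the bile acid and pathway genes, values without replicate 2 are given where it decided a call. Where it decided an overlap of the groups, the genes are named. That library was picked from these same data, so p-values without it describe the remaining libraries and are not independent tests. In fat, the libraries differed widely in transcripts of other tissues. The summed level of 10 hepatocyte markers ran from 2283 to 7121 CPM in null fat and from 819 to 2281 CPM in hHKDC1 OE fat, and that of 5 skeletal muscle markers from 320 to 11060 CPM and from 656 to 9464 CPM. All 10 hepatocyte markers were present in every liver library, at a summed 101586 to 103167 CPM in null and 76326 to 92757 CPM in hHKDC1 OE livers. These sums lay apart, and among single markers Alb lay apart on the lower side and Hpx and Ambp on the higher, with Fgb overlapping through hHKDC1 OE replicate 2 alone, none called (edgeR, smallest adjusted p = 0.512). The 5 Kupffer cell markers, of the liver's macrophages, summed to 76.7 to 149 CPM and to 155 to 300 CPM, all 5 with an unadjusted p under 0.05 and none called (smallest adjusted p = 0.606). The part of these shifts in the bile acid gene values was not tested. The adipocyte markers summed to 20799 CPM or more in every fat library.

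In liver, none of the 10 bile acid genes was called higher or lower with hHKDC1 when the counts were tested with edgeR (quasi-likelihood, Benjamini-Hochberg adjusted p), and neither was any of the 13351 genes tested (0% called at an adjusted p under 0.05, smallest adjusted p = 0.0573). At an unadjusted p under 0.05 the share of all genes was 6.94%, and 0 of the 10 bile acid genes were among them. DESeq2, run as an alternative, called 45 genes higher and 49 lower and none of the 10. The median log2 fold change of the 10 was 0.04, beside 0.01 over all genes tested, with 6 values above 0 and 4 below. For all 10 the null and hHKDC1 OE libraries overlapped, whereas the groups did not overlap for 12.2% of all genes tested (8.77% higher and 3.47% lower with hHKDC1). The gene furthest from 0 was Cyp7b1, at 0.76 ± 0.39 (SE), which 2 alternatives called higher, as given below.

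**Figure D1:**
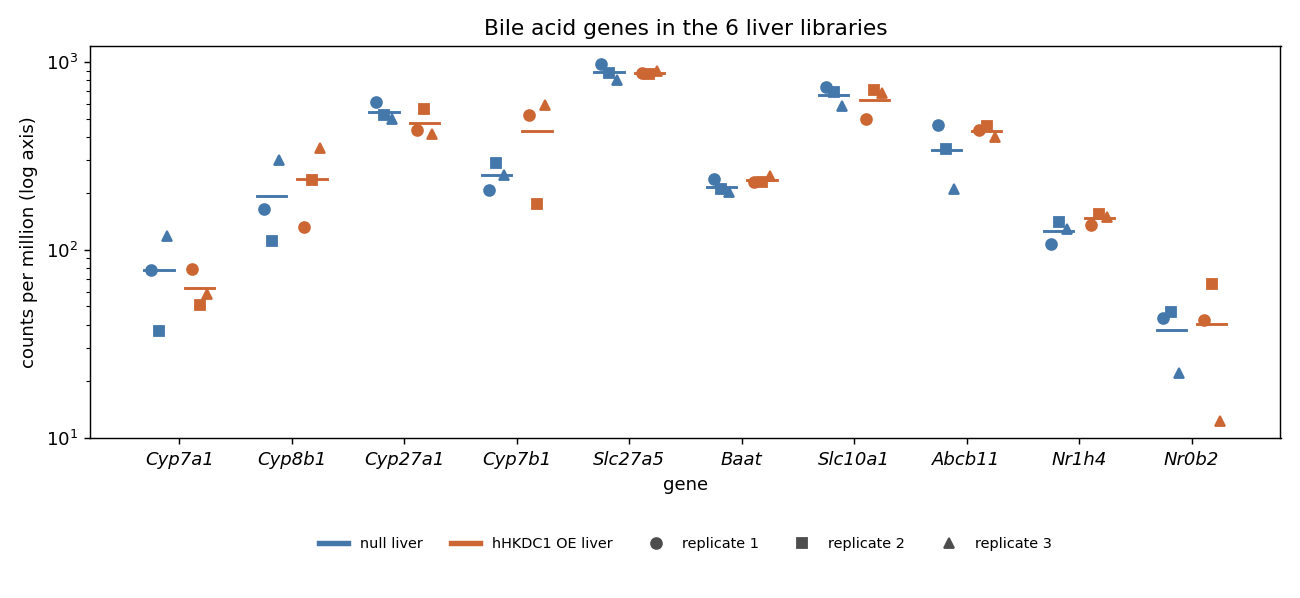
Level of the 10 bile acid genes in each liver library, in CPM on a log axis, with null libraries in blue, hHKDC1 OE libraries in orange, symbols for the replicate and a bar at the mean of each group of 3. The groups overlap for every gene, and Cyp7b1 shows 2 hHKDC1 OE libraries at 526 and 593 CPM and the third at 176 CPM.

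Cyp7a1 (chromosome 4, 6265612 to 6275633, minus strand, GRCm38) encodes the rate-limiting enzyme of the classic route. Its level was 78.3, 37.0 and 119 CPM in the null livers and 79.5, 51.1 and 58.2 CPM in the hHKDC1 OE livers. The hHKDC1 OE values lay inside the null range, and the null libraries were spread more widely than the hHKDC1 OE ones. The log2 fold change was -0.35 ± 0.37 (SE, edgeR adjusted p = 0.899), and without null replicate 3 it was 0.06.

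Cyp8b1 (chromosome 9, 121914356 to 121916305, minus strand) encodes the 12-alpha-hydroxylase that sets how much cholic acid is made. It was measured at 164, 112 and 303 CPM in the null livers and at 132, 237 and 348 CPM in the hHKDC1 OE livers. Both groups spanned more than 2-fold, with replicate 3 the highest in each. Its log2 fold change was 0.23 ± 0.38 (SE, edgeR adjusted p = 0.945), and it fell below 0 without null replicate 2 (-0.04) or without hHKDC1 OE replicate 3 (-0.13). The sequence before its start is shown because HNF4-alpha, a hepatocyte nuclear receptor, is known to drive Cyp8b1. RefSeq windows (GRCm38.p6) were at hand for 6 of the 10 genes, and each was searched on both strands over the 250 bases before the start for 3 sets of letters. They were CAAAGTCCA for HNF4, TCAAGG for LRH-1 (Nr5a2, which activates this pathway) and the inverted repeat bound by FXR, which is AGGTCA, any 1 base and TGACCT, with up to 1 mismatch. The minus strand of chr9:121916306-121916555 held CAAAGTCCA once, in capitals here, from 67 to 59 bases before the start, and 0.384% of the 32851 windows in the table held those letters.
Cyp8b1: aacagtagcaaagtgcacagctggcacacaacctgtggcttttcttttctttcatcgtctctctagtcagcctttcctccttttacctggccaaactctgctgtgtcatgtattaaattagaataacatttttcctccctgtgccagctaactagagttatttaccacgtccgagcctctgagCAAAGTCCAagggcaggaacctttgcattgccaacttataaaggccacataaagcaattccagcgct

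Cyp27a1 (chromosome 1, 74713574 to 74737892, plus strand) encodes the mitochondrial hydroxylase of the sterol side chain that opens the alternative route. Its level was 613, 522 and 500 CPM in the null livers and 434, 566 and 417 CPM in the hHKDC1 OE livers. Replicates 1 and 3 of the hHKDC1 OE group lay under all null libraries and replicate 2 lay among them. The log2 fold change of -0.28 ± 0.17 (SE) did not pass (edgeR adjusted p = 0.82). Without replicate 2 the groups lay apart, as on that side for 11.8% of all genes, and the value was -0.38 ± 0.18 (SE, adjusted p = 0.507).

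Cyp7b1 (chromosome 3, 18071950 to 18243338, minus strand) encodes the enzyme that hydroxylates the oxysterols made by Cyp27a1, and its level in mouse liver is known to be higher in males. It was at 209, 290 and 250 CPM in the null livers and at 526, 176 and 593 CPM in the hHKDC1 OE livers. Replicates 1 and 3 of the hHKDC1 OE group thus lay far above the null range and replicate 2 below it. With all libraries the log2 fold change of 0.76 ± 0.39 (SE) did not pass (edgeR adjusted p = 0.772). Without hHKDC1 OE replicate 2 it was 1.15 ± 0.17 (SE) and passed (adjusted p = 0.0122). It also passed in edgeR when no filter on low counts was used (0.77, adjusted p = 0.0102). That fit called 180 genes higher and 147 lower of 24792, where the main fit called 0, so the call came with the setting. Over all 16 alternatives the adjusted p ran from 0.0102 to 1.00. Leaving out that library moved the genes called from 0 to 77 higher and 69 lower (0.567% and 0.508% of 13587), and Cyp7b1 was the 1 of the 10 among them. By FPKM, Cyp7b1 stood at 0.342 to 0.556 of Cyp27a1 in the null livers. In the hHKDC1 OE livers the same ratio was 1.22 and 1.43 in replicates 1 and 3, so that Cyp7b1 exceeded Cyp27a1 there, and 0.312 in replicate 2.

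The conjugating enzymes varied little between libraries. Slc27a5 (chromosome 7, 12988346 to 12998192, minus strand), the ligase that activates bile acids with coenzyme A, was at 982, 879 and 802 CPM in the null livers and at 874, 863 and 893 CPM in the hHKDC1 OE livers. Baat (chromosome 4, 49489422 to 49506557, minus strand), which transfers the activated bile acid to taurine or glycine, was at 237, 212 and 203 CPM and at 230, 230 and 248 CPM. All hHKDC1 OE values of Slc27a5 lay inside the null range, and Baat differed from it in 1 library. Their log2 fold changes were -0.08 ± 0.17 and 0.06 ± 0.15 (SE), with edgeR adjusted p-values of 0.963 and 0.974.

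Slc10a1 (chromosome 12, 80953183 to 80968705, minus strand) encodes NTCP, the sodium-driven carrier that takes bile acids up from blood. It was at 740, 698 and 582 CPM in the null livers and at 496, 711 and 687 CPM in the hHKDC1 OE livers. Only replicate 1 of the hHKDC1 OE group lay outside the null range, and the log2 fold change was -0.17 ± 0.18 (SE, edgeR adjusted p = 0.897).

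Abcb11 (chromosome 2, 69238282 to 69342616, minus strand) encodes BSEP, the pump that moves bile salts into the canaliculus, and is a textbook FXR target. Its level was 461, 346 and 211 CPM in the null livers and 434, 455 and 400 CPM in the hHKDC1 OE livers. The hHKDC1 OE libraries lay close together inside the upper part of the null range, and null replicate 3 was the lowest of the 6. The log2 fold change was 0.27 ± 0.27 (SE, edgeR adjusted p = 0.895), and over the 16 alternatives it ran from 0.01 to 0.59. Its window is shown for the FXR element, which lies on the minus strand of chr2:69342617-69342866. It held the inverted repeat with 1 mismatch, in capitals, from 63 to 51 bases before the start, and 0.0791% of all windows held such a match.
Abcb11: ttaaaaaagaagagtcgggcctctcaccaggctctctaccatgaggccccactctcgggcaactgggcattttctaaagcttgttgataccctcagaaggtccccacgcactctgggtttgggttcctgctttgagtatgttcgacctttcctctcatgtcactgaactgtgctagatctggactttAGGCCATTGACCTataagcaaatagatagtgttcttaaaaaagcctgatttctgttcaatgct

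Nr1h4 (chromosome 10, 89454234 to 89533585, minus strand), the gene of FXR, was at 108, 140 and 129 CPM in the null livers and at 136, 155 and 150 CPM in the hHKDC1 OE livers. Replicates 2 and 3 of the hHKDC1 OE group lay above all null libraries, by a small margin. The log2 fold change was 0.17 ± 0.14 (SE, edgeR adjusted p = 0.866). Nr0b2 (chromosome 4, 133553376 to 133556536, plus strand), the gene of SHP, was at 43.2, 46.8 and 22.1 CPM and at 42.3, 65.6 and 12.3 CPM. The highest and the lowest of the 6 values were both hHKDC1 OE libraries, which made this the least precise of the 10 estimates at 0.03 ± 0.50 (SE, edgeR adjusted p = 0.995), and 7 of its 16 alternatives gave a value below 0. The window of Nr0b2 (plus strand of chr4:133553126-133553375) is shown because LRH-1 is known to act there. TCAAGG occurred 2 times, in capitals, from 68 to 63 and from 35 to 30 bases before the start, and 12.5% of all windows held it at least once.
Nr0b2: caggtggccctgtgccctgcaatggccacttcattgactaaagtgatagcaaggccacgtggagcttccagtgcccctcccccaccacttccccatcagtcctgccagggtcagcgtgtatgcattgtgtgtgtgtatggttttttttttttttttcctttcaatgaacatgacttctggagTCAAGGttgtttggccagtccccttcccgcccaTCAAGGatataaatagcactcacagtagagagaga
The inverted repeat was not found in the Nr0b2 or Cyp8b1 windows, and none of the 3 sets of letters was found in those of Cyp27a1, Slc10a1 or Nr1h4, which says only that these letters were not in these windows.

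Because SHP is known to repress Cyp7a1 and Cyp8b1, the levels of Nr0b2 were set beside those of the other 9 genes over the 6 liver libraries, a choice made after the values were seen. In both groups replicate 3 had the lowest Nr0b2 (22.1 and 12.3 CPM) and the highest Cyp8b1 (303 and 348 CPM). Across all 6 libraries Pearson's r on the log2 scale was -0.68 for Cyp8b1 (exact permutation p = 0.139, adjusted over the 9 relations 0.508) and Spearman's rho was -0.60 (exact permutation p = 0.242, adjusted 0.435). Without the 2 libraries farthest from the median Nr0b2 level, r was 0.78, so that the relation rested on those 2 libraries. For Cyp7a1 r was -0.32 (exact permutation p = 0.544, adjusted 0.903) and rho -0.60 (exact permutation p = 0.242, adjusted 0.435), and r was -0.44 without the same 2 libraries. None of the 9 relations passed, with the smallest adjusted p at 0.508 for r and 0.435 for rho, and the 3 libraries of each vector were too few for a value within a group.

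**Figure D2:**
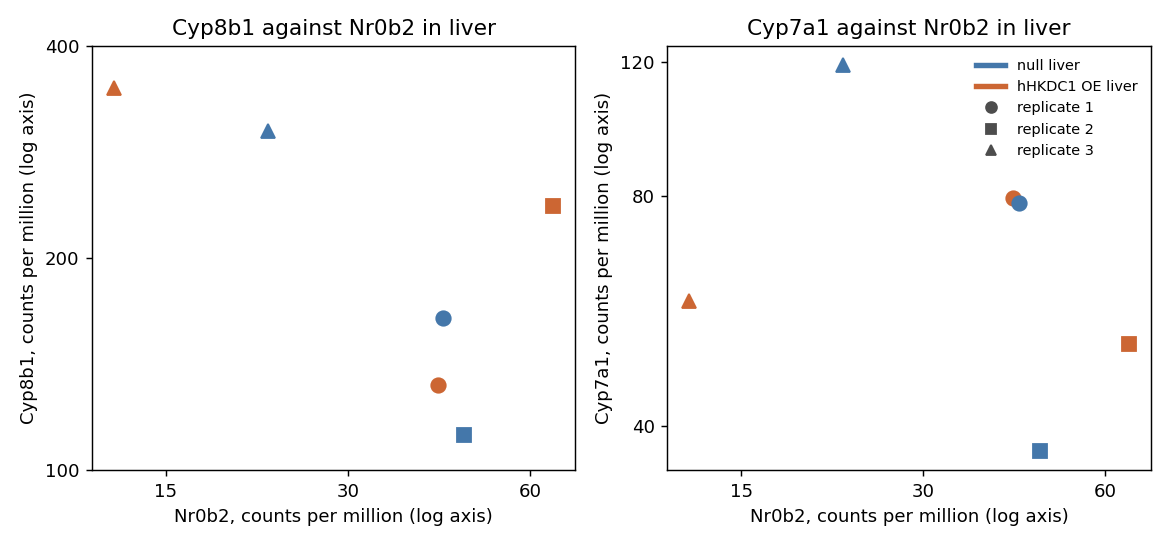
Level of Cyp8b1 (left) and Cyp7a1 (right) against that of Nr0b2 in the 6 liver libraries, in CPM on log axes, with null libraries in blue, hHKDC1 OE libraries in orange and symbols for the replicate. The libraries with the least Nr0b2, replicate 3 of both groups, have the most Cyp8b1, and hHKDC1 OE replicate 2 with 65.6 CPM of Nr0b2 and 237 CPM of Cyp8b1 departs from that order.

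By FPKM, a level per gene length, the order of the 10 genes was the same in both liver groups. Slc27a5 came first at 510 ± 79.1 in null livers (SD, n = 3) and 472 ± 46.0 in hHKDC1 OE livers, followed by Slc10a1 at 429 ± 72.0 and 372 ± 39.7 and Cyp27a1 at 352 ± 58.1 and 283 ± 35.1. Cyp7b1 was at 160 ± 20.5 and 267 ± 146, Baat at 157 ± 21.5 and 160 ± 14.6 and Cyp8b1 at 137 ± 65.7 and 158 ± 65.8. Abcb11 at 93.2 ± 38.9 and 109 ± 11.7, Nr1h4 at 76.0 ± 6.95 and 83.5 ± 2.24 and Nr0b2 at 46.4 ± 17.5 and 46.0 ± 28.9 came next. Cyp7a1, the rate-limiting enzyme, had the lowest level of the 10, at 26.1 ± 13.1 and 20.1 ± 6.68. Most neighbours in this order overlapped within a group. The exceptions were Nr1h4, which lay above Nr0b2 in every library of both groups, Cyp27a1 above Cyp7b1 in null livers, and, in hHKDC1 OE livers, Slc27a5 above Slc10a1, Slc10a1 above Cyp27a1 and Abcb11 above Nr1h4.

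A further 38 genes of the pathway were listed by role, and 31 of them had enough counts in liver to be tested. None passed by edgeR, 2 were under 0.05 before adjustment (6.94% of all genes were), and their median log2 fold change was -0.12. The 5 sinusoidal and basolateral transporters all had values below 0, with a median of -0.60, from Abcc4 at -1.01 ± 0.58 (SE, adjusted p = 0.795) to Slco1b2 at -0.08 ± 0.24. Among them Slco1a4, an organic anion carrier, was at -0.81 ± 0.33 (adjusted p = 0.665). Its levels were 36.4, 31.5 and 24.9 CPM in null and 10.9, 31.9 and 13.8 CPM in hHKDC1 OE livers. The basolateral exporter Abcc3, at -0.60 ± 0.41 (adjusted p = 0.83), had 148, 139 and 135 CPM and 41.3, 187 and 71.0 CPM. For both, replicates 1 and 3 of the hHKDC1 OE group lay below every null library and replicate 2 did not. Without that library both passed, Slco1a4 at -1.36 ± 0.22 (SE, edgeR adjusted p = 0.0201) and Abcc3 at -1.36 ± 0.21 (adjusted p = 0.0173), and of the 32 genes then tested these 2 were called, both lower (0.508% of all genes were). The groups then lay apart for 6 of the 32 on the lower side (also Acot8, Abcc2, Abcg5 and Nr1i2) and for 3 on the higher (Cyp2c70, Slc51b and Fgfr4), beside 11.8% and 14.5% of all genes. The side chain and ring enzymes ran from Acot8, a peroxisomal thioesterase, at -0.37 ± 0.16 (adjusted p = 0.691) to Amacr, the racemase of the side chain, at 0.17 ± 0.17. The canalicular transporters ran from the sterol half-transporter Abcg5 at -0.38 ± 0.24 to Atp8b1 at 0.21 ± 0.28, and the regulators from Nr1i2, the xenobiotic receptor PXR, at -0.36 ± 0.19 to Mafg, a repressor of bile acid synthesis genes, at 0.17 ± 0.24. Cyp39a1 and Cyp46a1, other oxysterol hydroxylases, were at 0.09 ± 0.34 and 0.75 ± 0.61, and Slc10a2, the intestinal bile acid carrier that bile ducts also use, at -0.45 ± 0.40. Fgfr4, the receptor through which intestinal FGF15 represses Cyp7a1, was the 1 gene whose groups did not overlap with all libraries, at 34.6 ± 5.37 CPM in null and 40.2 ± 2.06 CPM in hHKDC1 OE livers (SD, n = 3, log2 fold change 0.16 ± 0.17). Among all genes tested, 8.77% lay apart in this direction. The 7 genes not tested were Hsd3b7, Ch25h, Slc51a, Slc51b, Gpbar1, Fabp6 and Fgf15, with at most 12 counts in a liver library.

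The genes whose log2 CPM was most like that of 3 of the 10 over the 6 liver libraries, among 13350 genes, are given as a description. For Cyp7a1 they were Aurka (r = 0.986), Atp6v0d2 (0.977) and Slc26a2 (0.971), for Cyp8b1 Flvcr1 (0.983), Mkrn1 (0.983) and Unc45b (0.981), and for Nr0b2 Gsto1 (0.989), Dusp6 (0.980) and Setd4 (0.978). With 6 libraries and this many genes, values of this size are reached by the top of the list for each of the 3.

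Subcutaneous fat gave low levels of all 10 genes. In null fat against null liver all 10 were called lower by edgeR (of the 15259 genes tested 64.3% were called, 33.8% higher and 30.5% lower), with log2 differences from -5.96 ± 0.79 (SE) for Cyp7a1 (adjusted p = 0.000329) to -4.00 ± 0.26 for Cyp27a1 (adjusted p = 9.64e-06). Their median was -5.65 (-4.74 when scaled by library size alone and -6.26 without null fat replicate 3), and the groups lay apart for all 10, beside 79.0% of all genes tested (62.7% higher and 16.3% lower in fat). The 10 hepatocyte markers, which include albumin (Alb), apolipoproteins and Cps1 of the urea cycle, had a median of -5.64 and a range from -5.87 to -5.49. Leaving out Cyp27a1, the bile acid genes lay between -5.96 and -5.03.

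To set each gene's fat level against what its liver level would give, the level of each hepatocyte marker in a fat library was expressed as a percent of its mean over the 6 liver libraries. The median of the 10 percents, called the hepatocyte marker share here, was 2.10, 2.04 and 7.14% in the null fat libraries and 2.86, 0.921 and 1.52% in the hHKDC1 OE fat libraries. Null replicate 3 had the highest share by far. The mean was 3.76 ± 2.93% against 1.77 ± 0.990% (SD, n = 3), a difference of -2.0 percentage points (two-sided exact permutation p = 0.4). With 3 libraries against 3 no p under 0.1 can be reached, so this test could not pass. When the summed level of the 10 markers replaced the median, the shares were 2.46, 2.43 and 7.57% against 2.43, 0.870 and 1.31%, which lay apart by the narrowest margin (exact permutation p = 0.1). Without null replicate 3 the difference was -0.31 percentage points (exact permutation p = 0.8). In bulk tissue, fewer cells of a type and less RNA per cell cannot be told apart, and the source of the hepatocyte transcripts in fat was not tested.

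The count of each gene was then divided by the count predicted from its liver level and the hepatocyte marker share of the library. Over the 60 values of the hepatocyte markers themselves this ratio ran from 0.457 to 1.81, and their medians over the 6 fat libraries ran from 0.947 to 1.11. Of the 10 bile acid genes, 7 had medians from 0.79 to 1.05, which were 0.79 for Cyp7a1, 0.90 for Cyp8b1, 0.79 for Cyp7b1, 0.97 for Slc27a5, 0.94 for Baat, 0.98 for Slc10a1 and 1.05 for Abcb11. Slc10a1 had the narrowest range of ratios of these 7, from 0.925 to 1.25 on counts of 107 to 872. For Slc10a1 the fat libraries held 2050 counts in all, where 1989 were predicted, and for Slc27a5 2633, where 2691 were predicted.

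Cyp27a1 stood above its predicted level in all 6 fat libraries. Its ratio was 4.58, 5.31 and 2.39 in null fat against 3.86, 10.2 and 5.46 in hHKDC1 OE fat, and was lowest where the hepatocyte marker share was highest. The level itself was 49.0, 55.0 and 86.6 CPM in null fat and 56.1, 47.9 and 42.2 CPM in hHKDC1 OE fat. Of its 6162 counts in fat, those predicted from the hepatocyte markers came to 25.2%. By FPKM it was the highest of the 10 in both fat groups, at 22.8 ± 6.45 and 15.2 ± 2.00 (SD, n = 3), and it lay above the next gene, Slc27a5 at 9.73 ± 6.75 and 4.75 ± 2.34, in every library of its group. Cyp27a1 is known to act in many tissues outside the liver.

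Nr1h4 had a ratio of 1.34, 1.66 and 1.34 in null fat against 1.34, 1.78 and 1.48 in hHKDC1 OE fat. All 6 values were above 1, and their median of 1.41 lay above the medians of the hepatocyte markers (0.947 to 1.11). The single values lay inside the range of single marker values, whose upper end of 1.81 belonged to Hpx. The counts of Nr1h4 in fat were 43 to 244. Nr0b2 had a median ratio of 1.28 and ran from 0.33 to 2.33 on counts of 3 to 71. The lowest value rested on 3 counts in hHKDC1 OE replicate 3, with an exact Poisson 95% interval from 0.067 to 0.95 that covers counting error only. Cyp7a1 was at its lowest on 8 counts in null replicate 2 (0.31, interval 0.14 to 0.62) and on 4 counts in hHKDC1 OE replicate 3 (0.24, interval 0.065 to 0.61).

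The ratios of 2 of the 10 genes did not overlap between null and hHKDC1 OE fat, and neither did those of 4 of the 10 hepatocyte markers that set the prediction (Alb, lower with hHKDC1, and Fgb, Hpx and Ambp, higher). The share over all genes was not computed for these ratios, so 2 of 10 cannot be called more or less than usual. The 2 were Slc10a1 by a narrow margin (lowest null value 1.01, highest hHKDC1 OE value 0.959) and Cyp7b1 by a wider one. For Cyp7b1 it was 0.51, 0.56 and 0.65 in null fat against 0.93, 1.09 and 2.98 in hHKDC1 OE fat. When each fat library was set against the livers of its own vector, whose Cyp7b1 levels differed as given above, the ratios were 0.67, 0.73 and 0.88 and 0.79, 0.84 and 2.47. The groups then overlapped, for Slc10a1 too, and hHKDC1 OE replicate 3 remained the highest for Cyp7b1.

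**Figure D3:**
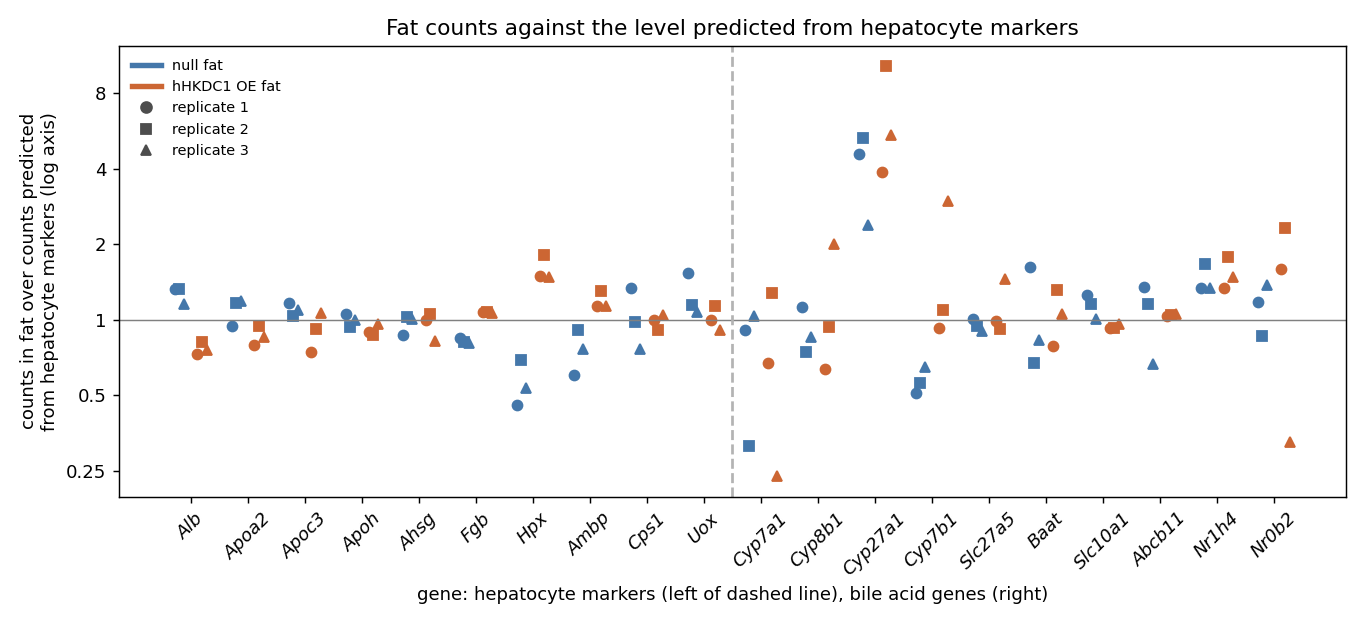
Counts in each fat library divided by the counts predicted from the liver level and the hepatocyte marker share of that library (log axis), for the 10 hepatocyte markers left of the dashed line and the 10 bile acid genes right of it, with null fat in blue, hHKDC1 OE fat in orange and symbols for the replicate. Cyp27a1 lies at 2.39 to 10.2 in all 6 libraries, and most other bile acid genes lie around 1, with wider scatter for Cyp7a1, Cyp7b1 and Nr0b2.

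Other pathway genes covered a wide range of ratios in fat. The ring reductase Akr1d1 (median ratio 1.00), the hydroxysteroid dehydrogenase Akr1c6 (0.987), the peroxisomal oxidase Acox2 (1.06), the carrier Slco1b2 (0.876), the sterol transporters Abcg5 (0.947) and Abcg8 (1.07), Abcc2 (1.12), Hnf4a (1.12) and Slc10a2 (1.07) lay near the level predicted. The organic anion carrier Slco1a4 (1.57), Nr5a2 (3.44), the racemase Amacr (5.24) and Cyp39a1 (7.68) lay above it. Farther above were, among others, the nuclear receptors Rxra (25.6) and Nr1h3 (42.4), Hsd17b4 (32.5) and Scp2 (8.0) of peroxisomal oxidation and Klb (92.5), the co-receptor of FGF signals that adipocytes are known to carry. These genes were named after their values were seen. In null fat against null liver, 29 of the 31 tested were called lower (30.5% of all genes were) and 1, the exporter Abcc4, was called higher (33.8% of all genes) at 2.86 ± 0.42 (SE, edgeR adjusted p = 0.000583). Among the lowest were Slco1a1 at -5.87 ± 0.52, Cyp2c70, the mouse enzyme that makes muricholic acids, at -5.85 ± 0.59, Fgfr4 at -5.71 ± 0.33, Abcg5 at -5.71 ± 0.61 and Slc10a2 at -5.67 ± 0.57, and Klb at 0.05 ± 0.33 did not pass. Cyp39a1 was at -3.54 ± 0.33, Cyp46a1 at -3.11 ± 0.82, Atp8b1 at -2.46 ± 0.22 and Hsd17b4 at -1.47 ± 0.17. The other side chain and ring enzymes called lower were Akr1c6 at -5.70, Acox2 at -5.61, Akr1d1 at -5.52, Amacr at -3.86, Scp2 at -3.42, Abcd3 at -3.31 and Acot8 at -1.86. The other transporters were Slco1b2 at -5.76, Abcg8 at -5.70, Abcc2 at -5.48, Slco1a4 at -5.36, Abcb4 at -3.95 and Abcc3 at -3.20, and the other regulators Hnf4a at -5.49, Nr1i2 at -5.38, Nr1i3 at -4.79, Nr5a2 at -4.46, Rxra at -1.60, Mafg at -1.01 and Nr1h3 at -0.85.

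With hHKDC1, none of the 10 bile acid genes passed in fat by edgeR, nor did any of the 16380 genes tested (0% called, smallest adjusted p = 0.133). At an unadjusted p under 0.05, 2 of the 10 were below the threshold, beside 17.7% of all genes, and DESeq2 called 1253 genes higher and 193 lower but none of the 10. Of the 10 log2 fold changes 9 were below 0, with a median of -1.03 over all 10 beside -0.05 over all genes tested. None of the 10 hepatocyte markers passed either (smallest adjusted p = 0.165), and 9 of them were below 0, with a median of -1.29. The 6 B cell markers summed to 1.58 to 3.06 CPM in null fat and to 787, 44.0 and 580 CPM in hHKDC1 OE replicates 1, 2 and 3. The 5 T cell markers summed to 2.65 to 7.78 CPM and to 315, 22.3 and 372 CPM, and the 5 Kupffer cell markers to 4.57 to 14.3 CPM and to 375, 29.1 and 244 CPM. Of the latter Marco, Timd4 and Cd5l lay apart on the higher side and Clec4f and Vsig4 overlapped. None of these markers passed (smallest adjusted p = 0.133), and the part of other cell types in the values of the 10 genes was not tested. For 0 of the 10 did the 2 groups lie apart, whereas they did for 24.3% of all genes (20.3% higher and 3.99% lower).

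Slc10a1 had the lowest adjusted p of the 10, at a log2 fold change of -1.42 ± 0.54 (SE, edgeR adjusted p = 0.247). It was at 17.2, 15.3 and 46.8 CPM in null fat and at 17.3, 5.56 and 9.51 CPM in hHKDC1 OE fat. Null replicate 3 was far above the others, and hHKDC1 OE replicate 1 lay among the null libraries. Cyp27a1 was at -0.52 ± 0.22 (adjusted p = 0.272), with hHKDC1 OE replicate 1 above 2 of the null libraries. Baat was at -1.20 ± 0.52 (adjusted p = 0.288), Abcb11 at -0.99 ± 0.45 (0.306), Nr1h4 at -1.16 ± 0.55 (0.319), Cyp7a1 at -1.61 ± 0.93 (0.391), Slc27a5 at -0.95 ± 0.57 (0.41), Cyp8b1 at -0.92 ± 0.62 (0.459) and Nr0b2 at -1.07 ± 0.89 (0.536). Cyp7b1 was the 1 gene above 0, at 0.15 ± 0.71 (0.922), and it went below 0 without null replicate 1 (-0.23), null replicate 2 (-0.21) or hHKDC1 OE replicate 3 (-0.44). Without null replicate 3, the library with the highest hepatocyte marker share, the median over the 10 was -0.33. Over the alternatives Cyp7a1 ran from -2.18 to -0.29 and Slc27a5 from -1.30 to -0.27. Cyp8b1 ran from -1.44 to -0.25 and Nr0b2 from -1.91 to -0.03, so the sizes depended on the setting while these signs held.

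**Figure D4:**
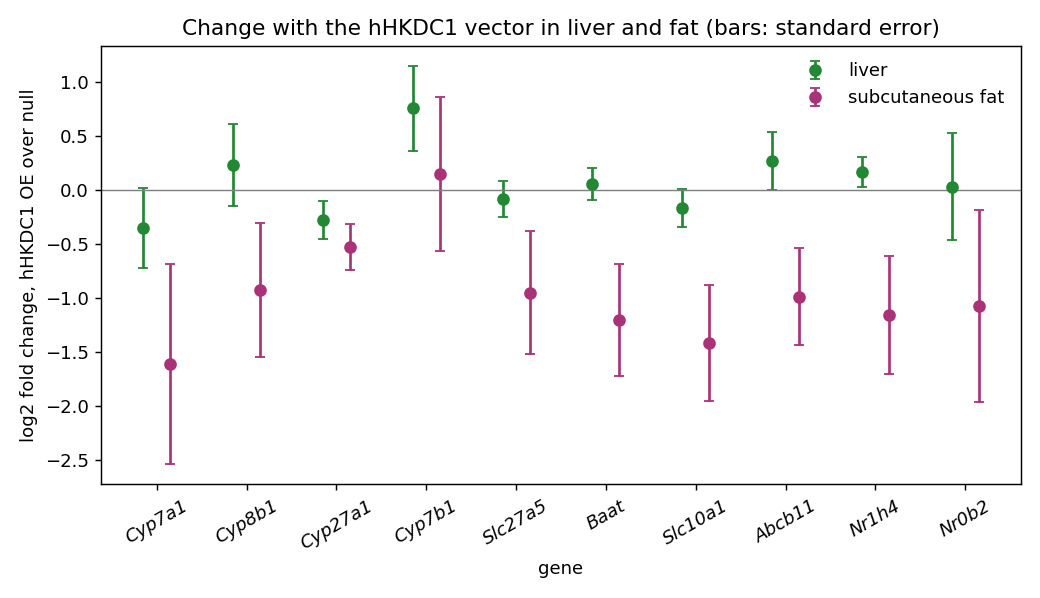
Log2 fold change of hHKDC1 OE over null for the 10 bile acid genes in liver (green) and subcutaneous fat (purple), with bars for 1 standard error of the edgeR estimate from 3 libraries a group. Liver values lie between -0.35 and 0.76, fat values between -1.61 and 0.15, and none passed at an adjusted p under 0.05.

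Of the other pathway genes 30 could be tested in fat. None passed, 27 were below 0 with a median of -0.73, and 8 were under 0.05 before adjustment, as were 17.7% of all genes. The groups lay apart on the lower side for 5 of them, beside 3.99% of all genes, which were Abcd3 at -0.47 ± 0.14 (SE), Slco1a4 at -1.45 ± 0.52, Abcc4 at -0.57 ± 0.17, Nr1i2 at -1.88 ± 0.69 and Slc10a2 at -1.59 ± 0.54, with edgeR adjusted p-values from 0.161 to 0.235. Abcc4, whose fat level was far above that predicted from liver, was at 21.4 ± 0.897 CPM in null fat and 16.1 ± 1.76 CPM with hHKDC1 (SD, n = 3). Acot8 lay apart on the higher side at 0.27 ± 0.20, as did 20.3% of all genes. Among the 8 genes not tested in fat, Ch25h, the cholesterol 25-hydroxylase that macrophages are known to make, had 7, 0 and 2 counts in null fat and 60, 3 and 129 counts with hHKDC1. The lowest and highest values of the other roles were Akr1d1 at -1.58 ± 0.61, Cyp39a1 at -0.52 ± 0.30, Abcg5 at -1.31 ± 0.78, Atp8b1 at -0.54 ± 0.38 and Nr5a2 at 0.08 ± 0.36.

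The difference between the fat and the liver response was tested in 1 model over all 12 libraries. None of the 10 genes passed, nor did any of the 17070 genes tested (0% called by edgeR, and 12.7% with an unadjusted p under 0.05). All 10 differences were below 0 with a median of -1.12, beside 0.03 over all genes, and the hepatocyte markers had a median of -1.18. The lowest unadjusted p-values belonged to Nr1h4 at -1.24 ± 0.54 (SE, adjusted p = 0.365) and Baat at -1.18 ± 0.52 (adjusted p = 0.38). Without null fat replicate 3 the median over the 10 was -0.41 and Cyp7b1 was at 0.24. Of the 31 other pathway genes none passed. Their values ran from Cyp46a1 at -1.81 ± 1.37, Nr1i2 at -1.44 ± 0.68 and Akr1d1 at -1.33 ± 0.59 to Acot8 at 0.72 ± 0.22, Abcc4 at 0.52 ± 0.55 and Klb at 0.27 ± 0.43, with Abcc2 at -1.0 ± 0.58, Slco1b2 at -0.91 ± 0.66, Atp8b1 at -0.67 ± 0.49 and Cyp39a1 at -0.53 ± 0.49 between them.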

How the data were processed

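RNA-seq was made from liver and subcutaneous fat of mice with null or hHKDC1 vector, in 3 libraries per group. The study gives 3 mice a group for the fat, the labels name no animal, and for liver p-values measure the spread between these libraries. Per the labels and the study's methods, the authors prepared libraries that do not mark strand, aligned paired reads with STAR (2.5 in the labels) and counted them per gene with HTSeq 0.6.1. The deposited counts were used as whole numbers with no normalization, and the deposited FPKM values for levels per gene length. The methods name a human genome as reference, whereas the identifiers are mouse, and 46 of the 48 pathway genes had their GRCm38 position in GENCODE M21. Other deposited tables hold the authors' own fold changes and p-values and were not used. Without strand, reads of Abcb11 and its antisense neighbour cannot be told apart, although the latter held at most 11 counts.

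Counts were tested with edgeR 4.0.16 (R 4.3.3, TMM, filterByExpr, quasi-likelihood test, Benjamini-Hochberg over all genes tested, called at an adjusted p under 0.05), with 3 libraries a group in liver, in fat, in null fat against null liver, and over 12 libraries for the difference of responses. DESeq2 1.42.0, limma 3.58.1 on log2 of FPKM plus 1 or 0.1, other scalings and filters, a replicate block and leaving out each library were alternatives. Correlations and the hepatocyte marker share used exact permutation in scipy 1.17.1. When log2 changes of 2 were simulated for 200 genes, edgeR found 177 of them in the liver design with 11 false calls and 117 in the fat design with 8, which says nothing of smaller changes such as those of the 10 genes in liver. Each gene was simulated independently, so these numbers also do not cover a library that departs over many genes together, as hHKDC1 OE liver replicate 2 did. All 10 genes are named in each comparison, and of the 38 others those called and the highest and lowest of each role, with further ones named after their values were seen. The genes and lists were chosen with earlier results of these data known.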

Additional observations from a re-analysis of the deposited data

How the results depend on the processing

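Of the 10 bile acid genes, 0 were called in liver, in fat and for the difference of responses under every alternative, except Cyp7b1 in liver, which was called higher (1 gene) without a filter on low counts and without hHKDC1 OE replicate 2. In null fat against null liver all 10 were called lower in each alternative. Counts over all genes depended on the setting. In liver, where the edgeR counts were 0, DESeq2 called 45 genes higher and 49 lower, library size scaling 2 higher, no filter 180 and 147, limma 2 and 1 (pseudocount 1) or 3 and 2 (pseudocount 0.1), and leaving out 1 library gave 0 to 77 higher and 0 to 69 lower. In fat, also from 0, DESeq2 called 1253 and 193, no filter 723 and 80, a fit of 12 libraries 770 and 106, limma with pseudocount 1 called 1 higher, and leaving out 1 library gave 0 to 1957 higher and 0 to 1294 lower, both highest without hHKDC1 OE replicate 2. For the difference of responses DESeq2 called 406 and 91, no filter 426 and 53, and leaving out 1 library gave 0 to 700 and 0 to 511. In null fat against null liver, scaling by library size alone called 9012 higher and 2286 lower in place of 5163 and 4647, with the median of all genes at 0.98 in place of 0.09, and leaving out 1 library gave 4801 to 5185 higher and 4082 to 4565 lower. The cause of these shifts was not tested. In fat the same scaling put the median over all genes at 0.11 in place of -0.05, and that of the 10 at -0.90 in place of -1.03.

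The replicate block, a paired fit by replicate number, called 13 genes higher and 4 lower in liver and 159 and 9 in fat, and changed no call among the 10. Same-numbered libraries did not deviate together in all pairs (r from -0.11 to 0.21), so the numbers were not taken as pairs. The lowest r was between null and hHKDC1 OE fat, which cannot share a mouse. Between liver and fat of 1 vector, r ran from -0.0023 to 0.21 for the same number and from -0.17 to 0.13 for different numbers. The block joins null and hHKDC1 OE libraries of 1 number alike, so no fit paired liver with fat by mouse.

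The signs of 5 of the 10 genes turned in liver and that of Cyp7b1 in the other 2 comparisons that involve hHKDC1. In liver Nr0b2 went from 0.03 to -0.17 with the replicate block, to -0.000903 in a fit of 12 libraries and to -0.21 and -0.22 with limma. With 1 liver library left out, Nr0b2 ran from -0.43 (without hHKDC1 OE replicate 2) to 0.46, with -0.25 without null replicate 3 and -0.09 without hHKDC1 OE replicate 1. Cyp7a1 ran from -0.69 to 0.0577 (without null replicate 3), Cyp8b1 from -0.13 (without hHKDC1 OE replicate 3) to 0.69, with -0.04 without null replicate 2, Slc27a5 from -0.16 to 0.0282 (without null replicate 1) and Baat from -0.00325 (without null replicate 3) to 0.15. In fat Cyp7b1 ran from -0.44 to 1.07, the ends given by leaving out hHKDC1 OE replicate 3 and null replicate 3, with -0.23 and -0.21 without null replicates 1 and 2. Its difference of responses ran from -1.31 to 0.24, the latter without null fat replicate 3. The difference in hepatocyte marker share ran from -2.86 to -0.31 percentage points when 1 fat library was left out, and was -2.62 with the summed marker level (exact permutation p = 0.1, the smallest the design allows). In fat, depth limits Cyp7a1 and Nr0b2, with as few as 4 and 3 counts in a library. With at least 10 counts asked of every fat library, 8 of the 10 genes were left to test there.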

Other observations

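Fat and liver libraries of the same vector and number were set side by side for the bile acid genes, and some genes were extreme in the same way in both and others were not. In hHKDC1 OE replicate 3 the liver had the lowest Nr0b2 (12.3 CPM) and the highest Cyp8b1 (348 CPM) and Cyp7b1 (593 CPM) of the 6 livers, and the fat library with that number had the lowest Nr0b2 ratio to the predicted count (0.33) and the highest Cyp8b1 (2.00) and Cyp7b1 (2.98) ratios of the 6. In null replicate 3 the liver had the lowest Abcb11 (211 CPM) and the fat library with that number the lowest Abcb11 ratio (0.66). In null replicate 2 the liver had the lowest Cyp7a1 (37.0 CPM), and the fat library had a Cyp7a1 ratio of 0.31, the second lowest. Against this, hHKDC1 OE liver replicate 2 had the lowest Cyp7b1 (176 CPM) while its fat ratio (1.09) was the second highest, and null liver replicate 3 had the second lowest Nr0b2 (22.1 CPM) and second highest Cyp8b1 (303 CPM) while its fat ratios were 1.38 and 0.86. Over the 10 bile acid genes and 10 hepatocyte markers, 5 of the 6 fat libraries had their highest Pearson r of log2 levels, each relative to the mean of the livers, with the liver library of the same vector and number. These r were 0.72, 0.54, 0.23, 0.16 and 0.58 for null replicates 1 and 2 and hHKDC1 OE replicates 1, 2 and 3, beside a next highest r of 0.59, 0.45, 0.18, 0.085 and -0.011. Null replicate 3 had r = 0.36 with the liver of its number and 0.55 with hHKDC1 OE liver replicate 2. The 20 genes share a library and are not independent, the comparison was made after the data were seen, and whether a shared number marks a shared mouse is not given in the labels, so this is a description with no test.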
